A study of Bos taurus with 10 samples.

Results

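Mesenteric and omental adipose tissue are the fat depots of the bovine abdomen that lie in the mesentery of the intestine and in the omentum. Their RNA was compared here on 4 of the 10 arrays of a survey of cow tissues at peak lactation. These are all arrays whose titles name either depot, 2 per depot, and they hold 2 of the 5 RNA samples of the survey; the others are liver, mammary gland and subcutaneous adipose tissue. Each array was a cDNA array on which a tissue and a reference standard, mixed from tissues, were hybridised together in different dyes, and each tissue was hybridised once with its RNA in Cy3 and once with its RNA in Cy5. The labels give total RNA from cow at peak lactation for both depots, with no treatment, and give no breed or age. They do not say whether the depots came from the same animal, nor whether RNA of several animals was pooled.

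The arrays of a depot therefore carry 1 RNA sample measured again with the dyes exchanged, and a difference between the depots has no replicate check and no p-value. The error given after ± below is the dye orientation error, which is the distance of the difference in each orientation from the mean of the 2. It measures labelling and hybridisation and leaves out the spread between animals. The reference is common to all arrays and drops out when the depots are subtracted. Every level below is the log2 ratio of a tissue to the reference after the median of its array was subtracted, and a difference of 1 is 2-fold. The deposited ratio was read as Cy5 over Cy3, a direction that is likely but not stated; with it, the liver carrier of retinol RBP4 stood at 4.54 in liver and at -3.09 in mammary gland. Under the opposite direction each sign below would turn, and each order of tissues would run the other way. For the omental array with its tissue in Cy5, the labels disagree on the dye of the reference. That array was taken as titled. Over all named genes compared, its values correlated with the mesenteric array of the same orientation at a Pearson r of 0.941. The r was 0.918 between the arrays with the tissue in Cy3. Arrays of the same depot in opposite orientations correlated less, at 0.837 for mesenteric and 0.807 for omental fat. The median gap between orientations was 0.199 and 0.216, against a median absolute depot difference of 0.13. Dye orientation thus set the arrays further apart than depot did.

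Both depots are visceral fat, made of triglyceride-storing adipocytes among fibroblasts, blood and lymph vessels and immune cells. The surface that faces the peritoneal cavity is covered by mesothelium, a sheet of flat cells that carry simple keratins and tight junctions. Mesenteric fat also holds the vessels, lymphatics and lymph nodes that serve the intestine. At peak lactation a dairy cow draws on its fat stores, and adipose tissue both releases and remakes lipid.

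Names were available for 4366 genes after the print layout had been rejoined to the annotation, and 4047 of them could be compared. The labelled tissue was checked against 12 measured genes of adipocyte identity. The caveolar genes CAV1 and CAVIN1 stood at 1.63 and 1.60 in mesenteric fat and at 1.52 and 1.65 in omental fat, against -2.86 and -1.79 in liver. The fatty acid carrier FABP5 stood at 3.19 and 3.21 on the mesenteric arrays and at 3.93 and 3.71 on the omental arrays, against -0.36 in liver and 1.89 in mammary gland. In all, 4 of the 12 lay above both liver and mammary gland in each depot. ADIPOQ, LEP, PLIN1 and FABP4, which define adipocytes more strictly, were not analysed here. On the 4 arrays, 16164 to 16243 spots had a value.

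A gene was taken as different when the mean difference was at least 2-fold and both orientations had the same sign. By this size rule 11 genes were higher in mesenteric fat, which is 0.272% of the genes compared, and 6 were higher in omental fat, which is 0.148%; together the 17 are 0.42%. The 11 were CLDN1, KRT19, FBXO32, CCL21, FBLN1, PPP1R16A, PLN, CGN, FN1, MFAP4 and PTGDS, which include genes of tight junctions, a simple keratin, a lymphatic chemokine and extracellular matrix. The 6 were CA2, LOC532875, SPP1, ACLY, HAVCR1 and SERPINA3-3. No gene passed the same rule for the dye contrast, the part of the depot difference that turns with the dyes (0%). A dye effect shared by both depots drops out of this contrast and is not counted by it. Across all genes the standard deviation of the depot difference was 0.247 and that of the dye contrast 0.12, and the differences in the Cy3 and Cy5 orientations had a Pearson r of 0.616 across genes, which are not independent replicates. At 1.5-fold, 49 genes (1.21%) were higher in mesenteric and 58 (1.43%) in omental fat, against 5 (0.124%) for the dye contrast.

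**Figure D1:**
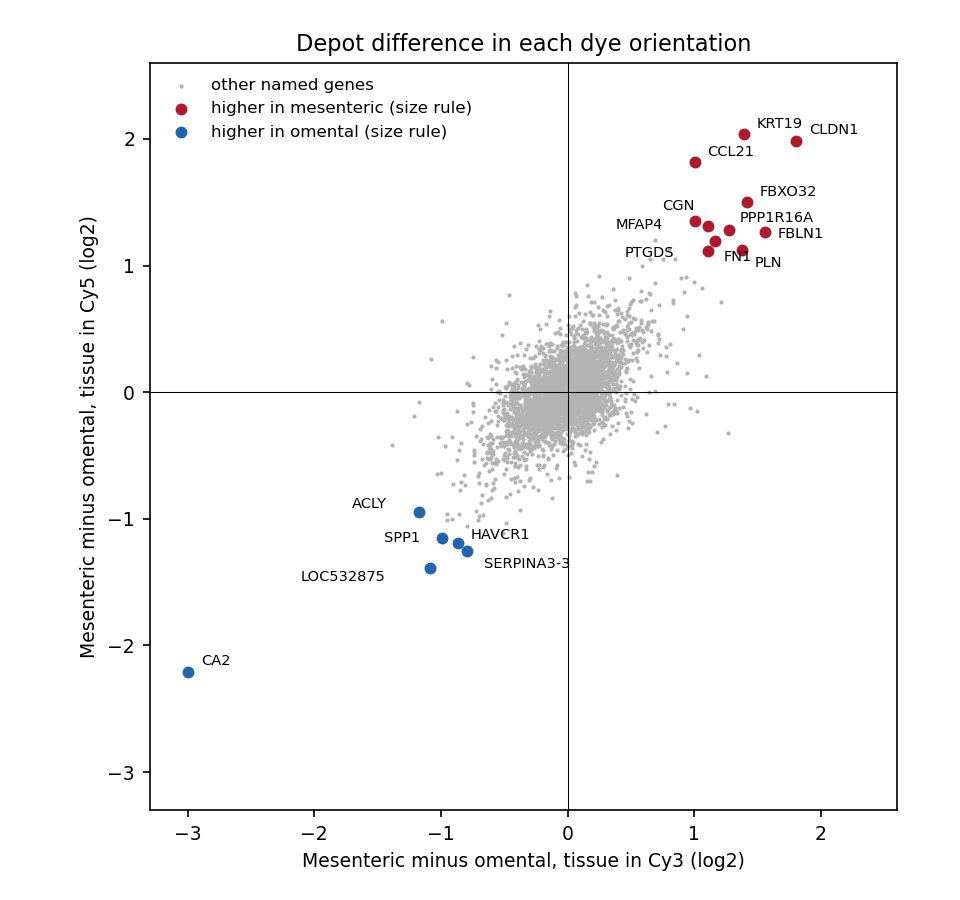
Difference between mesenteric and omental adipose tissue for each of 4047 named genes (log2), with the tissue in Cy3 on the horizontal axis and in Cy5 on the vertical axis; coloured points passed the size rule. The 11 genes higher in mesenteric fat lie at the upper right and the 6 higher in omental fat at the lower left, with CA2 the farthest from the origin at a mean of -2.60.

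The split between directions rests on the centring. Without it the median of all genes moved from -0.01 to -0.32, and 5 genes were higher in mesenteric against 35 in omental fat. The counts also rest on both orientations. They were 16 and 10 without the Cy3 pair, and 17 and 10 without the Cy5 pair. When 1 array was left out and the orientations were no longer balanced, they were 41 and 16 without the mesenteric Cy3 array, 11 and 35 without the mesenteric Cy5 array, 11 and 28 without the omental Cy3 array, and 35 and 14 without the omental Cy5 array.

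The gene lists used below were chosen with earlier results of these data known. A list count or share set beside that of all genes is therefore a description only. Of the genes higher in mesenteric fat, 2 encode tight junction proteins, which belong to none of the lists. CLDN1 encodes claudin 1, a strand protein of tight junctions. It stood at 1.89 and 3.09 on the mesenteric arrays (tissue in Cy3 and in Cy5, the order used throughout) and at 0.08 and 1.10 on the omental arrays. Both mesenteric values lay above both omental ones, and the difference was 1.90 ± 0.09, or 3.72-fold. A second CLDN1 element, set aside because its neighbouring spots disagreed by up to 2.67 on 1 array, gave 1.63 ± 0.24. CGN encodes cingulin, a protein of the cytoplasmic face of tight junctions. It stood at 0.58 and 0.83 in mesenteric and at -0.53 and -0.48 in omental fat. The depots did not overlap, the difference was 1.21 ± 0.10, and its 2 elements gave 1.03 and 1.38 separately.

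KRT19, a keratin of simple epithelia and of mesothelium, stood at 1.88 and 2.82 on the mesenteric arrays and at 0.48 and 0.79 on the omental arrays. The difference was 1.72 ± 0.32, or 3.29-fold, again without overlap. It was 1 of 6 measured genes of the mesothelium list, and the only one of them past the size rule. On the mesenteric side 0.272% of all genes passed that rule. The other 5 genes of the list stood closer together in the depots. KRT8, the keratin of simple epithelia on the list, differed by 0.61 ± 0.48. PDPN, a membrane glycoprotein of mesothelium and lymphatic vessels, differed by 0.39 ± 0.08, and EZR, a linker of microvilli to actin, by 0.21 ± 0.13. DPP4, a surface peptidase, differed by -0.10 ± 0.31, and KRT18, a simple keratin, by -0.19 ± 0.01. The list median was 0.30, against -0.01 for all genes. It was -0.01 without centring, 0.20 without the Cy5 pair and 0.49 without the omental Cy3 array.

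The 13 measured genes of the epithelium list did not share this direction. None passed the size rule, their median was -0.06, and 4 lay above and 5 below 0 in both orientations, which 32.3% and 35.2% of all genes did. The largest differences were those of the membrane-bound protease inhibitor SPINT1 at -0.52 ± 0.09 and of the adherens junction cadherin CDH1 at 0.47 ± 0.12. CDH1 stood at 0.39 and 0.61 in mesenteric and at -0.21 and 0.26 in omental fat. The protease inhibitor SPINT2 differed by 0.36, the mucin MUC1 by 0.28 and the splicing factor ESRP2 by 0.10. The epithelial adhesion molecule EPCAM stood nearly level at -0.06, as did the claudin CLDN7 at -0.07, the transcription factor GRHL2 at -0.04 and the protease ST14 at 0.00. The claudin CLDN4 was at -0.34, and ELF3, ESRP1 and EHF lay between -0.20 and -0.13. No gene of the pancreas list was measured.

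CCL21, a chemokine that lymphatic endothelium and lymph node stroma secrete to draw in dendritic cells and T cells, stood at 1.36 and 2.43 in mesenteric and at 0.35 and 0.61 in omental fat. The depots did not overlap, and the difference was 1.41 ± 0.41, or 2.66-fold. It was 0.88 without the mesenteric Cy5 array. Of the other 2 measured genes of the lymphatic list, PDPN is given above, and LYVE1, a hyaluronan receptor of lymphatic vessels and some macrophages, differed by -0.25 ± 0.21. LYVE1 stood at 1.53 and 2.09 in mesenteric and at 1.57 and 2.55 in omental fat, so its values overlapped. Blood vessel endothelium had 12 measured genes and none past the size rule. Their median was 0.30, with 9 above and 3 below 0 in both orientations, and it was -0.02 without centring. It was 0.56 without the mesenteric Cy3 array, 0.18 without the mesenteric Cy5 array, 0.09 without the omental Cy3 array and 0.13 without the Cy5 pair. The water channel AQP1 stood at 2.23 and 2.52 in mesenteric and at 1.72 and 1.79 in omental fat, a difference of 0.62 ± 0.10. The G protein subunit GNG11 differed by 0.59 ± 0.23. In bulk tissue, fewer cells of a type and less RNA per cell cannot be told apart.

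The list of interstitial matrix and fibroblast genes held 4 genes past the size rule among 26 measured, all higher in mesenteric fat, as were 0.272% of all genes. This list, too, was chosen with earlier results of these data known. Of the 4 genes, 3 encode matrix proteins and PTGDS an enzyme. FBLN1 encodes fibulin 1, a glycoprotein of elastic fibres and basement membranes. It stood at 2.59 and 2.93 in mesenteric and at 1.03 and 1.67 in omental fat, a difference of 1.41 ± 0.15 without overlap. MFAP4, a microfibril-associated glycoprotein, stood at 2.02 and 3.23 against 1.02 and 1.88. Its difference was 1.18 ± 0.17, and the lower mesenteric value lay only just above the higher omental one; it was 0.57 without the mesenteric Cy5 array and 0.75 without the omental Cy3 array. PTGDS, the synthase of prostaglandin D2, stood at 2.50 and 2.61 against 1.39 and 1.49, a difference of 1.11 with an error of 0.00. It fell short of the rule without centring, at 0.80, and with quantile normalisation, at 0.97.

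FN1 encodes fibronectin, an adhesive glycoprotein of the interstitial matrix. It stood at 0.54 and 0.82 in mesenteric and at -0.63 and -0.38 in omental fat, a difference of 1.18 ± 0.02 with 1.23 and 1.13 for its 2 elements. PPP1R16A, a regulatory subunit of protein phosphatase 1, stood at 0.56 and 0.95 against -0.71 and -0.33, a difference of 1.28. Over all 10 arrays the PPP1R16A element differed from the mean of the FN1 elements by at most 0.227, with a median gap of 0.04. The values of these genes therefore cannot be told apart, and whether the PPP1R16A element carries an FN1 sequence was not tested.

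The matrix and fibroblast list as a whole did not share a direction. Its median was 0.08, or -0.23 without centring, and 13 of its 26 genes lay above and 10 below 0 in both orientations. Its members ranged from -0.78 for TNC, the adhesion-modulating tenascin C, to 1.41 for FBLN1. Some further members are named here after their values were seen. The calcification inhibitor MGP stood at 6.49 and 7.53 in mesenteric and at 5.27 and 6.82 in omental fat, a difference of 0.96 ± 0.25. The proteoglycan decorin, DCN, differed by 0.58 ± 0.05, while the fibrillar collagen chain COL1A2 differed by -0.58 ± 0.02. The collagen-binding glycoprotein SPARC stood on the side of the collagen, at -0.56 ± 0.01, as did the fibulin FBLN2 at -0.17 and the thrombospondin THBS1 at -0.21. The 8 basement membrane genes had a median of -0.11 and none past the size rule, with COL4A1, a chain of collagen IV, at -0.41 ± 0.06 and the proteoglycan HSPG2 at -0.28 ± 0.14.

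PLN encodes phospholamban, which restrains the calcium pump of the sarcoplasmic reticulum in cardiac, slow skeletal and smooth muscle. It stood at 2.49 and 2.66 in mesenteric and at 1.11 and 1.54 in omental fat, a difference of 1.25 ± 0.13 without overlap. It was the only gene past the size rule among 20 measured on the smooth muscle and pericyte list. Of all genes 0.272% passed the rule on the mesenteric side. The median of that list was 0.09, or -0.23 without centring, with 10 genes above and 4 below 0 in both orientations. FBXO32, a muscle-enriched ubiquitin ligase subunit known from muscle atrophy, stood at 2.41 and 2.14 against 0.996 and 0.638. Its difference was 1.46 ± 0.04, or 2.75-fold, and it belongs to none of the lists.

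**Figure D2:**
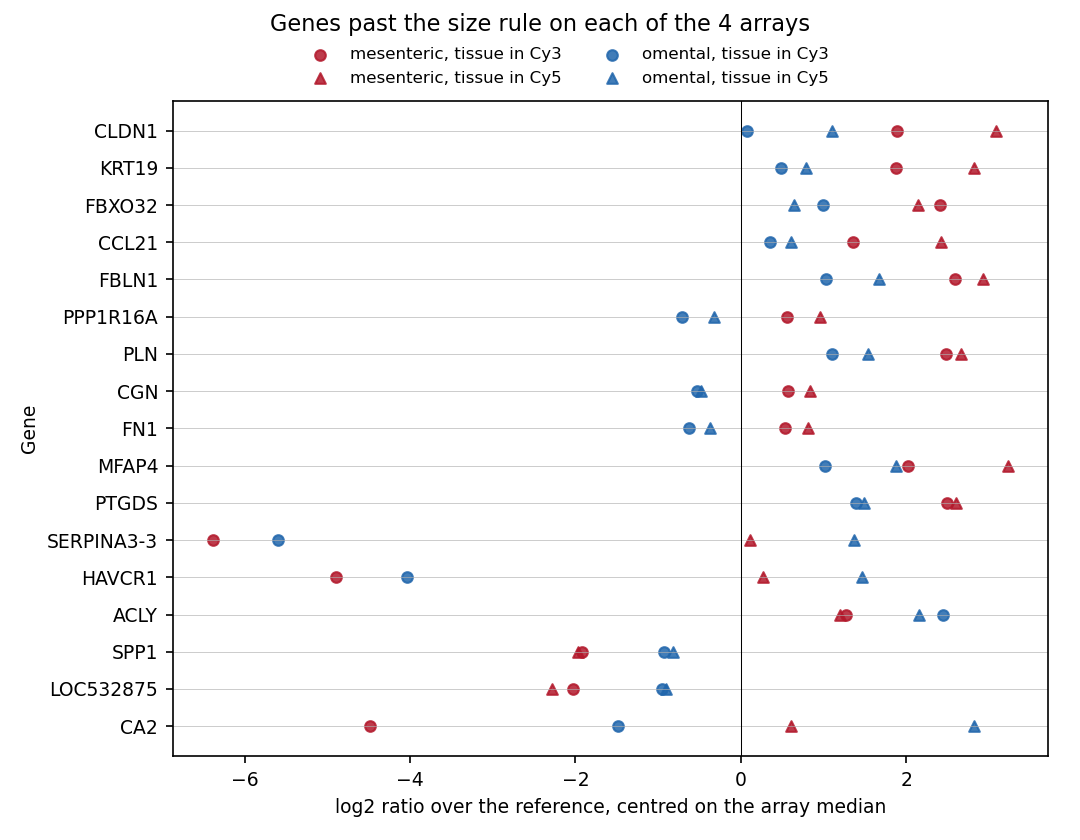
Level of each of the 17 genes past the size rule on each of the 4 arrays (log2 ratio over the reference, centred on the array median; circles, tissue in Cy3; triangles, tissue in Cy5; red, mesenteric; blue, omental). The depots do not overlap for 14 genes, while for CA2, HAVCR1 and SERPINA3-3 the circles and triangles of a depot lie farther apart than the depots do.

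For 14 of the 17 genes both arrays of a depot lay on the same side of both arrays of the other. Over all genes they did so for 17.1% with mesenteric above and 16.7% with omental above. The rule chose the 17 on these same arrays, which favours such a separation, so this is a description only. The exceptions among the 17 were CA2, HAVCR1 and SERPINA3-3, all higher in omental fat. CA2 encodes carbonic anhydrase II, abundant in red blood cells and in several other cell types, and was the only measured gene of the blood list. It stood at -4.48 and 0.61 on the mesenteric arrays and at -1.49 and 2.82 on the omental arrays. Within each orientation omental was the higher, giving -2.60 ± 0.39, but the dye orientation moved each depot more than the depots differed. The difference was -0.06 without the mesenteric Cy3 array and -0.45 without the omental Cy5 array.

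HAVCR1, a membrane receptor for phosphatidylserine, stood at -4.90 and 0.27 in mesenteric and at -4.03 and 1.47 in omental fat, a difference of -1.03 ± 0.16. SERPINA3-3, a secreted inhibitor of serine proteases, stood at -6.39 and 0.12 against -5.60 and 1.37, a difference of -1.02 ± 0.23. In liver they stood at 5.73 and 5.36, far above both depots. The difference of HAVCR1 turned to 1.56 without the mesenteric Cy3 array and to 1.72 without the omental Cy5 array, and that of SERPINA3-3 to 2.23 and 2.46. Among the 4 measured hepatocyte genes none passed the size rule, and their median of -0.16 ran from -1.60 without the mesenteric Cy5 array to 1.52 without the mesenteric Cy3 array. The retinol carrier RBP4 differed by -0.65, the apolipoprotein APOA1 by -0.23 and the iron carrier TF by -0.08, while the bile acid transporter SLC10A1 differed by 0.21. Over the 20 genes that stood highest in liver against the other tissues, the median depot difference was -0.28. The 2 of them at or below -1 were HAVCR1 and SERPINA3-3 again. Of all genes, 0.148% were higher in omental fat by the size rule.

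ACLY was the metabolic gene past the size rule. It encodes ATP citrate lyase, which makes the cytosolic acetyl-CoA used for fatty acid synthesis. It stood at 1.28 and 1.20 in mesenteric and at 2.45 and 2.15 in omental fat, without overlap. The difference was -1.06 ± 0.11, and its 2 elements gave -1.11 and -1.02. It was -0.95 without the Cy3 pair and -0.91 without the omental Cy3 array, just short of the rule. The 9 measured genes of fatty acid and triglyceride synthesis had a median of -0.48, with 2 above and 5 below 0 in both orientations. It was -0.25 without the mesenteric Cy3 array and -0.28 without the omental Cy5 array. Named after their values were seen, ACSL1, which activates long-chain fatty acids, stood at 3.26 and 4.42 in mesenteric and at 3.98 and 5.35 in omental fat, and GPAT3, which starts glycerolipid assembly, at 2.52 and 2.64 against 3.10 and 3.39. Their differences were -0.83 ± 0.11 and -0.67 ± 0.09.

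None of the 12 genes of adipocyte identity and lipid droplets passed the size rule. Their median was -0.06, and ran from -0.39 without the mesenteric Cy5 array to 0.07 without the omental Cy5 array. PLIN2, a coat protein of lipid droplets, stood at -0.42 and -0.34 in mesenteric and at 0.39 and 0.31 in omental fat, a difference of -0.73 ± 0.08. RBP4, which adipocytes secrete as well as liver, stood at -1.35 and 2.71 against -0.77 and 3.42. CAV1 and CAVIN1 differed by no more than 0.10. The 7 lipolysis genes lay between -0.15 for the monoglyceride lipase MGLL and 0.11 for PRKAR1A, a regulatory subunit of protein kinase A.

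Genes of mitochondrial energy metabolism lay slightly lower in mesenteric than in omental fat as a group, with none past the size rule. Their list was also chosen with earlier results of these data known. Of 40 measured genes of the respiratory chain and ATP synthase, 33 lay below 0 in both orientations and 1 above, or 82.5% below against 35.2% of all genes. Their median was -0.27, or -0.31 and -0.19 in the Cy3 and Cy5 orientations, and it was -0.16 without the omental Cy3 array. The complex I subunit NDUFA10 stood at 0.44 and 0.54 in mesenteric and at 1.18 and 1.01 in omental fat, a difference of -0.60 ± 0.13. SDHA, the flavoprotein of complex II, differed by -0.60 ± 0.14. No member was farther from 0 than these.

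Fuel, sterol and proteasome genes also had negative medians with none past the size rule, and not all of these kept their sign when 1 array was left out. The 13 fatty acid oxidation genes had a median of -0.15 with 10 below and 0 above 0 in both orientations, led by the electron transfer flavoprotein ETFA at -0.56 ± 0.08 and the acyl-CoA dehydrogenase ACADVL at -0.37 ± 0.05. That median was 0.07 without the mesenteric Cy3 array or without the omental Cy5 array. The 17 genes of glycolysis, lactate and pyruvate had a median of -0.19 with 11 below and 2 above, led by the aldolase ALDOA at -0.60 with an error of 0.00 and the lactate dehydrogenase LDHA at -0.50 ± 0.09. The 9 cholesterol genes had a median of -0.27, with the sterol synthesis enzymes LSS at -0.54 and EBP at -0.44; it was 0.12 without the mesenteric Cy3 array and -0.03 without the omental Cy5 array. The 20 proteasome genes had a median of -0.11 with 12 below and 0 above; PSMD8, a subunit of its regulatory particle, was at -0.90 with a wide error of 0.49, and the catalytic subunit PSMB6 at -0.46. Its median lay between -0.18 and -0.04, and that of glycolysis between -0.18 and -0.12, over the 6 ways of leaving out an array or an orientation.

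Cytosolic ribosomal proteins showed the opposite pattern. Of 42 measured, 31 lay above 0 in both orientations and 2 below, with a median of 0.20 and none past the size rule. Leaving out an array or an orientation kept that median between 0.14 and 0.29. RPS25 stood at 0.34 and -0.07 in mesenteric and at -0.15 and -0.73 in omental fat, a difference of 0.57 ± 0.09, and RPS27 differed by 0.48 ± 0.02. Members ranged from -0.06 to 0.57. The side depends on the centring, since without it the ribosomal median was -0.12 and that of the respiratory chain -0.58, while all genes stood at -0.32. Centring moves all genes alike, so it sets the sign of a list and not its place among the genes. The 27 genes of the endoplasmic reticulum had a median of -0.06, with the translocon stress protein SERP1 at 0.55 and the chaperone DNAJB11 at -0.33.

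**Figure D3:**
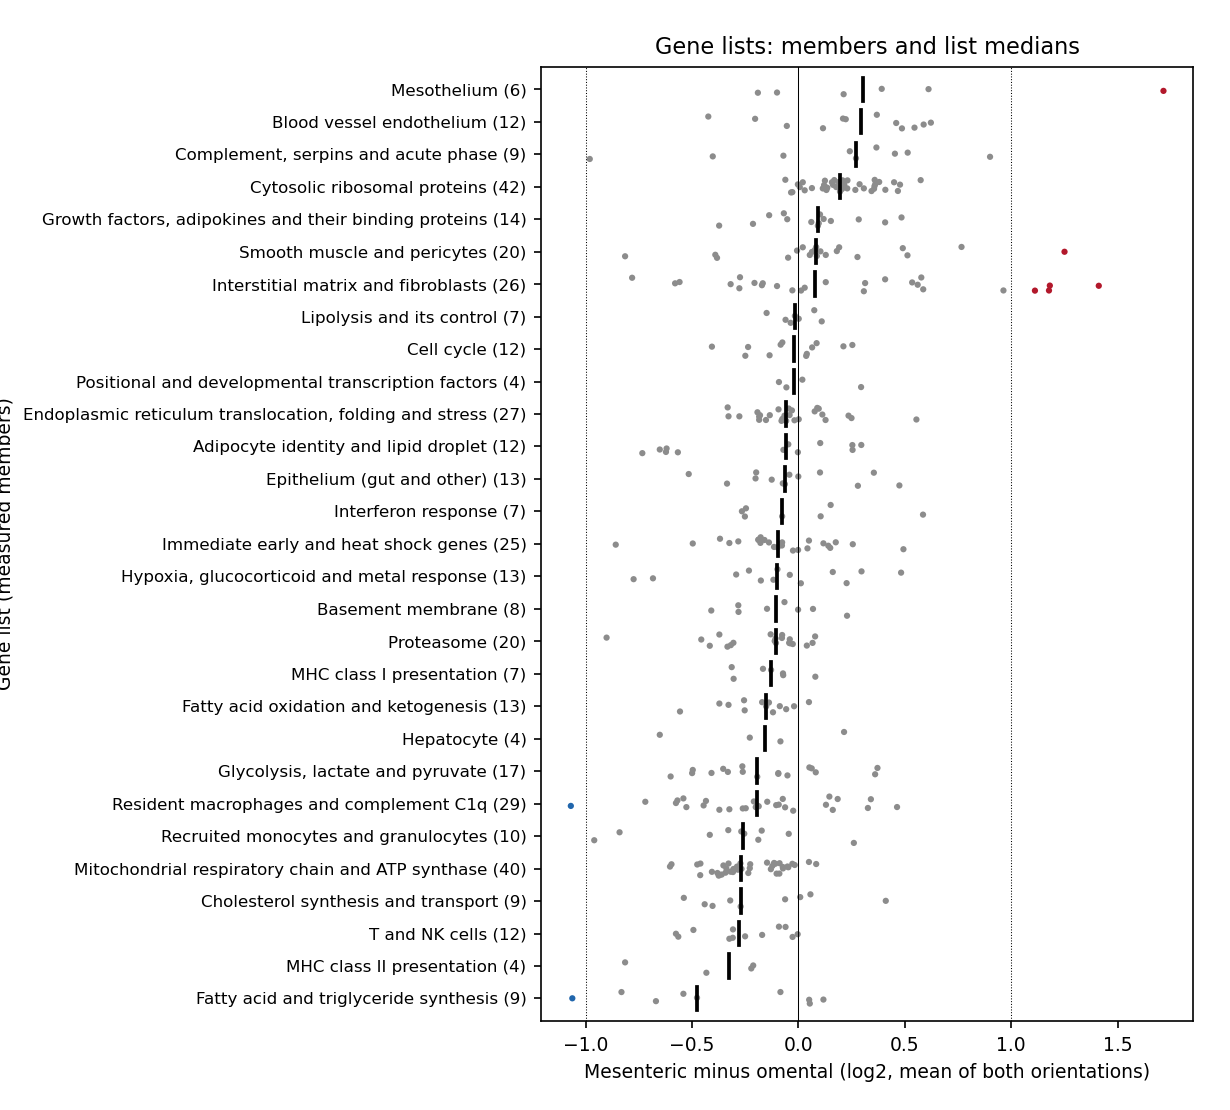
Difference between mesenteric and omental adipose tissue for the measured members of each gene list with 4 or more of them (log2, mean of both orientations; dots, genes; black bars, list medians; dotted lines, 2-fold; numbers of measured genes in parentheses). Mesothelium, blood vessel endothelium and ribosomal proteins have medians of 0.30, 0.30 and 0.20, the respiratory chain -0.27 and lipid synthesis -0.48; these positive medians become -0.01, -0.02 and -0.12 when the arrays are not centred.

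Immune cell genes lay mostly on the omental side. SPP1 encodes osteopontin, a secreted phosphoprotein of macrophages and other cells, and was the only gene of these lists past the size rule. On the omental side 0.148% of all genes passed that rule. SPP1 stood at -1.92 and -1.96 in mesenteric and at -0.93 and -0.82 in omental fat, a difference of -1.07 ± 0.08 without overlap. Its 2 elements disagreed, at -2.01 and -0.13, and with the stricter spot filter the second alone remained. The 29 genes of resident macrophages and complement C1q had a median of -0.19, with 19 below and 6 above 0 in both orientations. This median turned to 0.03 without the mesenteric Cy3 array and to 0.06 without the omental Cy5 array.

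The 10 genes of recruited monocytes and granulocytes had a median of -0.26, with 7 below and 1 above. LCP1, a leukocyte actin-bundling protein, stood at -2.33 and -2.26 in mesenteric and at -1.38 and -1.30 in omental fat. Its difference of -0.96 was short of 2-fold with an error of 0.00, and its arrays did not overlap. CORO1A, a leukocyte actin regulator, differed by -0.84 ± 0.14. The 12 T and NK cell genes had a median of -0.28, with 9 below and 0 above, led by the leukocyte surface glycopeptide CD52 at -0.57 ± 0.07 and the GTPase RAC2 at -0.56 with an error of 0.00. Of B and plasma cells only the immunoglobulin heavy chain IGHM and the proteoglycan SDC1 were measured, at -0.68 ± 0.02 and -0.66 ± 0.17.

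All 4 measured genes of MHC class II presentation lay below 0 in both orientations, with a median of -0.33. The class II beta chain BOLA-DRB3 stood at -0.10 and 0.18 in mesenteric and at 0.76 and 0.95 in omental fat, a difference of -0.81 ± 0.04, and the invariant chain CD74 differed by -0.43 ± 0.07. The medians of the recruited cell, T and NK cell and class II lists stayed below 0 when an array or an orientation was left out, and were nearest to 0 without the omental Cy5 array, at -0.16, -0.19 and -0.17. The 7 MHC class I genes had a median of -0.13, with the immunoproteasome subunits PSMB9 and PSMB8 at -0.31 and -0.30. The 7 interferon response genes had a median of -0.08, from -0.27 for the transcription factor IRF1 to 0.59 for the antiviral enzyme RSAD2.

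Among complement, serpin and acute phase genes the monocyte chemokine CCL2 and complement C2 lay on opposite sides. CCL2 stood at -0.31 and -0.75 in mesenteric and at 0.64 and 0.26 in omental fat, a difference of -0.98 ± 0.03. C2 stood at 0.79 and 3.17 against 0.04 and 2.13, a difference of 0.90 ± 0.15 with overlapping arrays. Neither passed the size rule, and the 9 genes had a median of 0.27, or -0.04 without centring. It had no stable side, at 0.93 and 0.87 without the mesenteric Cy3 or the omental Cy5 array, and at -0.56 and -0.65 without the mesenteric Cy5 or the omental Cy3 array.

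The remaining lists held no gene past the size rule. The 25 immediate early and heat shock genes, which respond to handling of tissue, had a median of -0.10, with the transcription factor FOS at -0.86 ± 0.15 and the chaperone HSPA8 at -0.50 ± 0.14. FOS stood at -2.42 and -2.71 in mesenteric and at -1.72 and -1.70 in omental fat. The 13 hypoxia, glucocorticoid and metal response genes had a median of -0.10, with the oxygen sensor EGLN3 at -0.77 ± 0.04 and the haem oxygenase HMOX1 at -0.68 ± 0.09. The part of handling or oxygen supply in the other differences was not tested. The 12 cell cycle genes and the 4 positional transcription factors each had a median of -0.02, with GATA2 at 0.30 and GATA3 at -0.09. The 14 growth factors, adipokines and binding proteins had a median of 0.09, or -0.22 without centring, with the growth factor TGFB3 at 0.49 ± 0.07 and the binding protein IGFBP3 at 0.41.

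LOC532875, a protein-coding gene without a better name, was also higher in omental fat. It stood at -2.03 and -2.29 in mesenteric and at -0.95 and -0.90 in omental fat, a difference of -1.24 ± 0.15 without overlap. Just inside the size rule lay PTGDS at 1.11 and SERPINA3-3 at -1.02. Just outside it, and named after their values were seen, were on the mesenteric side C1QTNF1, a secreted protein with a C1q domain, at 0.97, MGP at 0.96, the membrane receptor LRP4 at 0.95 and the integrin subunit ITGB4, which anchors epithelia to basement membranes, at 0.94. On the omental side were CCL2 at -0.98, LCP1 at -0.96, the acyl-CoA synthetase ACSL6 at -0.96 and the leukocyte sialoprotein SPN at -0.92.

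The genes past the size rule were set against the other tissues of the survey, as a description only: the rule chose them for a high value in 1 depot, which by itself moves that depot up among the tissues. All 11 genes higher in mesenteric than in omental fat also stood higher in mesenteric than in subcutaneous fat, as 47.0% of all genes did, and 8 of them stood highest of the 5 tissues in mesenteric fat, as 16.2% of all genes did. With the ratio turned these 8 would be lowest there, as 15.4% of all genes stand lowest in mesenteric fat as read here. The other 3 were the junction and keratin genes. CLDN1 stood at 3.35 in liver and 2.49 in mesenteric fat, CGN at 1.85 in liver, 1.18 in mammary gland and 0.70 in mesenteric fat, and KRT19 at 4.50 in mammary gland and 2.35 in mesenteric fat. The matrix gene FBLN1 stood at 2.76 in mesenteric, 1.35 in omental and 0.73 in subcutaneous fat, and the enzyme gene PTGDS at 2.55, 1.44 and -0.79. FN1 spanned a wider range, from -4.02 in mammary gland to 0.68 in mesenteric fat, with liver close below at 0.58 and a dye orientation error of 0.22 there. PPP1R16A, which follows FN1 over the arrays, stood at 0.76 in mesenteric fat, with an error of 0.195, and at 0.69 in liver. Both count among the 8, although their order between mesenteric fat and liver lies within these errors.

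Of the 5 genes higher in omental fat with a value in subcutaneous fat, 4 also stood higher in omental than in subcutaneous fat, as 46.8% of all genes did. ACLY stood at 2.30 in omental, 1.24 in mesenteric and -0.36 in subcutaneous fat. The exception was SPP1, at 2.51 in subcutaneous fat and 2.88 in mammary gland against -0.87 in omental and -1.94 in mesenteric fat. Of 57 measured genes of the myeloid, lymphocyte and MHC class II lists with a value in subcutaneous fat, 48 stood above both visceral depots there, 7 below both and 2 between them. Of all genes, 47.0% stood higher in mesenteric and 46.8% higher in omental than in subcutaneous fat. The share of all genes that stood above both depots in subcutaneous fat was not taken. LCP1 stood at 1.71 and BOLA-DRB3 at 1.96 in subcutaneous fat. The complement gene C1QA, picked as an example of the 7, had 1.97 there, below 2.61 in mesenteric and 2.68 in omental fat. The part of cell makeup in these differences was not tested.

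**Figure D4:**
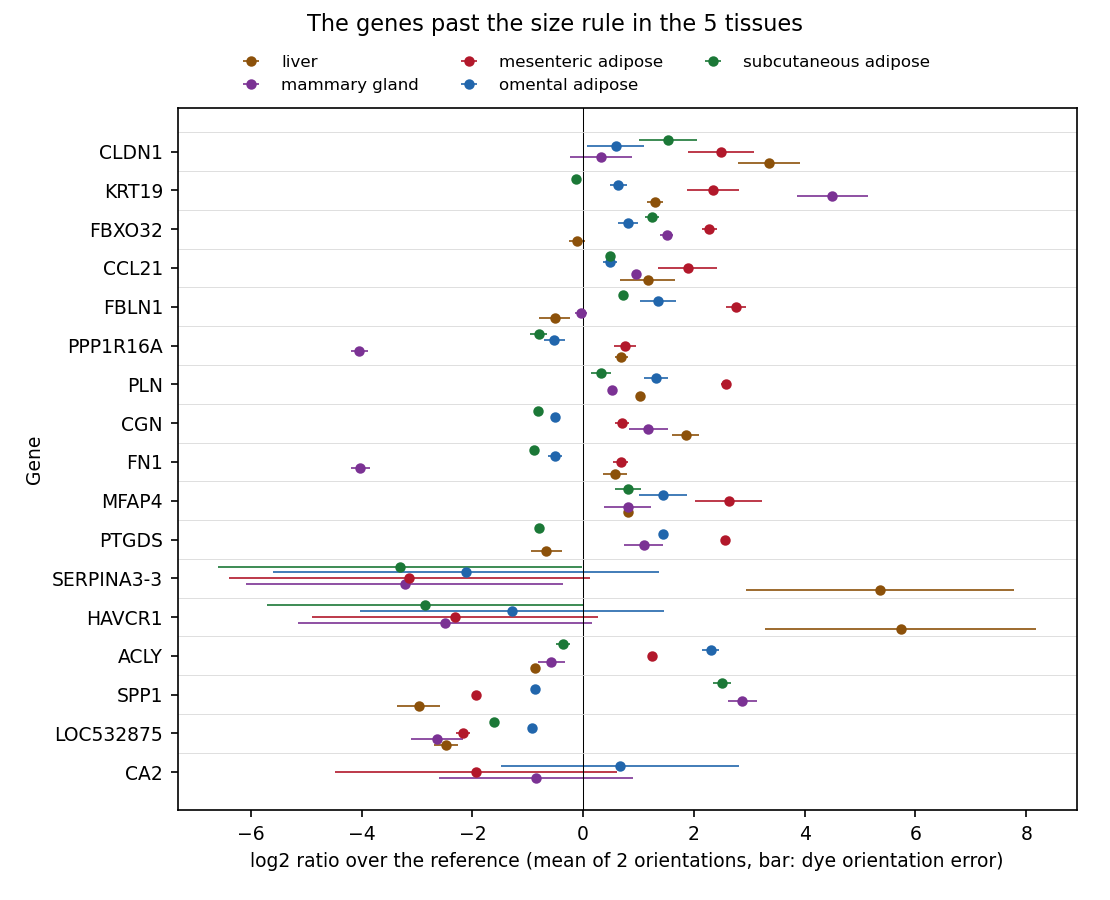
Level of the 17 genes past the size rule in the 5 tissues (log2 ratio over the reference, mean of the 2 orientations, 1 RNA sample per tissue; bars, dye orientation error). Mesenteric fat is the highest tissue for 8 of the 11 genes at the top, though only just above liver for FN1 and PPP1R16A. Liver lies far above the depots for HAVCR1 and SERPINA3-3 at 5.73 and 5.36, and the bars of CA2, HAVCR1 and SERPINA3-3 are wider than the gap between the depots.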

How the data were processed

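Log2 ratios per spot, with neither background correction nor normalisation given in the sources used here, were read from the deposited series table. The labels' protocols give 20 ug of RNA made into aminoallyl cDNA, hybridisation for 2 days at 42 C, a ScanArray 4000 scanner and image analysis with GenePix 4.0. That the log base is 2 was inferred from a ceiling value of 16.61, which is 100000 in log2 and was treated as missing (37 spots on the 4 arrays).

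Arrays with the tissue in Cy3 were negated, and each array was centred on its median. Neighbouring spots of an element were averaged where they differed by 1 or less on each of the 10 arrays, which kept 7137 of 8208 elements. The deposited identifiers did not match the values in the order given. The print layout was searched for by how well different clones of a gene agreed over tissues, with the depot difference left out. Over 916 clone pairs the adopted layout gave a median cosine of 0.84, against 0.09 for the next of 1024 layouts and 0.03 at face value, so names rest on this reconstruction. Of the identifiers, 10884 had 1 symbol, 186 several and 5346 none; of 5472 named elements 5467 matched a gene of the RefSeq table for ARS-UCD2.0, used for names only. Elements of a gene were averaged. In the 668 genes with 2 elements, the depot differences of the elements had a Pearson r of 0.494 across genes.

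Named are all genes past the size rule, members of lists past it, the 2 members with the largest difference in lists without one, and the measured members of lists of other cell types; others are said to be chosen after their values were seen. The members and all 33 lists were chosen with earlier results of these data known. Calculations used Python 3.11.15, numpy 2.4.6 and pandas 2.3.3. The code of the size rule was run on simulated data with planted differences. The simulation held no spread between animals and so says nothing of that spread. Alternatives covered centring, quantile normalisation, the spot filter, ceiling values, the fold, single orientations and single arrays.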

Additional observations from a re-analysis of the deposited data

How the results depend on the processing

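CLDN1, FBLN1, FBXO32 and KRT19 kept their call under all 16 alternatives, but not each alternative could remove it. The 1.5-fold setting is looser than the size rule. FBLN1, FBXO32 and KRT19 have 1 element each, with spots within 0.5, so the spot filters and the median over elements left their values as they were. Of the main 11 genes higher and 6 lower in mesenteric fat (spread of differences 0.247), the counts higher and lower became 5 and 35 without centring, 34 and 25 without the spot filter (spread 0.315, with 27 genes past the rule for the dye contrast), 49 and 58 at 1.5-fold, and 11 and 2 with each orientation past 2-fold. With spots within 0.5 they were 8 and 2 (spread 0.237), and 6 of the 17 genes had no value. With the spot filter on the 4 arrays only they were 16 and 9 (spread 0.266), with quantile normalisation 10 and 6 (0.240), and with ceiling values kept 11 and 6 (0.281). With no replicate block, that is with arrays not paired by orientation and the depots required not to overlap, they were 11 and 3. Leaving out an orientation gave 16 to 17 higher, 10 lower and a spread of 0.272 to 0.277, and leaving out 1 array gave 11 to 41 higher, 14 to 35 lower and a spread of 0.328 to 0.333. Of the 17 genes, CGN, FN1, MFAP4, PLN, PPP1R16A and PTGDS fell short of the rule without centring. HAVCR1, PTGDS, SERPINA3-3 and SPP1 did so with quantile normalisation. The signs of HAVCR1 and SERPINA3-3 turned without the mesenteric Cy3 array (1.56 and 2.23) and without the omental Cy5 array (1.72 and 2.46), while without the omental Cy3 array they were at -3.78 and -4.51. The cause of these changes was not tested beyond the construction of each alternative. With 1 RNA sample per depot, animal, sampling and depot cannot be told apart, and 2 arrays per depot limit the precision.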

Other observations

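Elements not given a single gene name here were left out of the comparisons above. They include elements with several symbols and all elements beyond the first 20 source plates, for which no names were used. Of 2187 such elements compared, 24 were higher in mesenteric and 2 in omental fat by the size rule. Among the 4047 named genes these counts were 11 and 6, or 0.272% and 0.148%. Of the 24, 13 shared a place in the print, each at the same position within its print block. With the 48 blocks counted in deposited order in runs of 12, they lay in the first 4 blocks of a run. Their differences ran from 2.47 to 3.07 with a median of 2.72; the highest difference of a named gene was 1.90, for CLDN1, and the lowest -2.60, for CA2. On the mesenteric arrays they lay between -0.08 and 1.45, and on the omental arrays between -2.76 and -1.5. The 16 elements at the same place in blocks 5 to 8 of a run differed by -0.75 to -0.45. The 16 in blocks 9 to 12 of a run differed by -0.53 to 0.05. That place lies beyond the plates for which names were used, and what is spotted there is not known from the sources used here. The other 11 of the 24 lay at other places.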
